A study of Mus musculus with 48 samples.

Results

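The mitochondrially encoded transcripts were described in polysomal RNA of whole astrocytes and of their fine branches at synapses in the mouse dorsal hippocampus. The members were all genes whose symbol starts with mt-, which are 13 messenger RNAs (mRNAs), 2 ribosomal RNAs (rRNAs) and 22 transfer RNAs (tRNAs), 37 of the 47643 genes listed in each file. All 37 lie on chromosome M, the mitochondrial genome, and all were found in the files by Ensembl identifier.

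By their animal labels, both groups came from the same 3 transgenic mice, C1 to C3, here animals 1 to 3, of the line Tg(Aldh1l1-eGFP/Rpl10a) JD130Htz, whose Aldh1l1 promoter, active in astrocytes, drives ribosomal protein L10a with an attached green fluorescent protein. The labels give no age, sex or treatment, and name no wild-type or untagged control. Translating ribosome affinity purification (TRAP) with an antibody to the fluorescent protein was applied to whole astrocytes (Astro) and to perisynaptic astrocytic processes (PAP). For every animal, the 8 technical replicates of a compartment were summed, which gave n = 3 libraries per group.

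Astro libraries held 18707844 to 20293538 counts and PAP libraries 1829962 to 2980984, so depth and compartment cannot be told apart at full depth. A count of 3, taken as the floor, corresponded to 0.152 to 0.175 CPM in Astro and to 0.987 to 1.54 CPM in PAP, where CPM are counts per 1000000 of the library total scaled by TMM factors unless stated otherwise. All 15 astrocyte markers of a fixed list were present in Astro, with a summed level of 30717 to 44049 CPM, against 5216 to 20439 CPM in PAP, where at most 1 of the 15 was at 0 in a library. Neuronal markers (14 genes) summed to 1103 to 1788 CPM in Astro and 1619 to 2654 in PAP, with none at 0 in all PAP libraries. Of the PAP sum, Snhg11, a long noncoding RNA, held 559 to 1256 CPM, and without it the other 13 summed to 1070 to 1783 CPM in Astro and 543 to 1398 in PAP. Of all 14, 6 had a positive log2 fold change of PAP against Astro, Syt1, Camk2a and Grin1 among them, and the median was -0.59. Oligodendrocyte markers (10 genes) summed to 1063 to 1101 and 572 to 1107 CPM, and none was at 0 throughout PAP. Microglial markers (10 genes) summed to 44.3 to 96.1 and 31.8 to 78.3 CPM, with Aif1, Cx3cr1, P2ry12 and Tmem119 at 0 in all PAP libraries. Endothelial markers (10 genes) summed to 7.38 to 13.6 and 15.4 to 24.4 CPM, with Cdh5, Cldn5, Esam, Slco1a4 and Vwf at 0 in all PAP libraries. The Astro means of Cdh5, Cldn5, Esam and Vwf (0.168 to 0.866 CPM) lay under the PAP floors, and that of Aif1 (1.10 CPM) lay between them. A fall in PAP was therefore not detectable for Cdh5, Cldn5, Esam and Vwf, and hardly for Aif1. RNAs retained in the nucleus (7 genes, such as Malat1) summed to 195 to 314 CPM in Astro and 1986 to 5252 in PAP. The part of these other RNAs in the results below was not tested, and fewer cells of a type cannot be told apart from less RNA per cell.

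The mitochondrial genome is a small circle, transcribed from both strands as long precursors that are cut at the tRNAs to release mRNAs and rRNAs. Its mRNAs encode core subunits of the respiratory chain and of ATP synthase, and are translated inside the organelle by mitochondrial ribosomes, which contain the mitochondrial rRNAs and not L10a. Most of its mRNAs carry a short poly(A) tail, and astrocyte processes are known to contain mitochondria.

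The nuclear genome holds copies of mitochondrial sequence, with which reads of the members can be confused. A blastn search of the 37 transcripts against all other GENCODE M21 transcripts (GRCm38) found 16 nuclear genes in the files that matched at 90% identity or more over 100 bases or more, for 11 members. The tRNAs, all shorter than that, could not meet it. Of these copies, 7 lay in a row on chromosome 1, from chr1:24611535-24612410 (Gm28439) to chr1:24615706-24616197 (Gm29216), on the minus strand. They matched mt-Co1, mt-Co2, mt-Atp6, mt-Co3, mt-Nd3, mt-Nd4l and mt-Nd4 at over 99% identity with the spacing of chrM:6390-11042, except for a shift of 1 base between the copies of mt-Nd3 and mt-Nd4l. The copies of mt-Co2, mt-Atp6, mt-Co3, mt-Nd4l and mt-Nd4 had 0 mismatches over 681, 678, 783, 294 and 876 bases.

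A window of 60 bases is shown for 3 members and their nuclear copies, with differing bases in capitals, since these pairs stand for a member at 0 everywhere, a member with few counts and a member with many. Sequences are in the direction of the gene, from the GENCODE transcripts, and positions count from the first base of the gene. The mt-Co2 window (chrM:7323-7382, plus strand) and that of its copy Gm28661 (chr1:24615196-24615255, minus strand) did not differ.
mt-Co2: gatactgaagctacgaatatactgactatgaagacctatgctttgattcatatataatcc
Gm28661: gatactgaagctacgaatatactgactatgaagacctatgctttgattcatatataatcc
The first bases of mt-Nd3 (chrM:9459-9518, plus strand) and of Gm28438 (chr1:24613060-24613119, minus strand) held the only difference in their match of 345 bases, T3C.
mt-Nd3: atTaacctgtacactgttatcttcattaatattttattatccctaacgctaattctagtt
Gm28438: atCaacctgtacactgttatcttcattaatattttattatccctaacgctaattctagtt
In mt-Cytb (chrM:14687-14746, plus strand) and its copy Gm11410 (chr4:80004531-80004590, plus strand), this window held T564C, C567T, G570A and C591T, 4 of the 81 differences over their match of 1142 bases.
mt-Cytb: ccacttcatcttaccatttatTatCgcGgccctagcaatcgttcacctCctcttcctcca
Gm11410: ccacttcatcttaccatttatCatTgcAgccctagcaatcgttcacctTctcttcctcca

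Counts along the mitochondrial genome had a gap at this span. Of the 11 members wholly inside it, 7 had 0 counts in all 6 libraries, namely the mRNAs mt-Co2, mt-Atp8, mt-Atp6 and mt-Co3 and the tRNAs mt-Ts1, mt-Td and mt-Tk. The other 4, mt-Tg, mt-Nd3, mt-Tr and mt-Nd4l, had at most 11 counts in any library. Outside the span, 0 of 24 members were at 0 in all libraries. The copies themselves had next to no counts: of the 16, only 5 had any, with at most 3 in a library. Inside the span, mt-Co1 has 483 of its 1545 bases and mt-Nd4 876 of its 1378, and these members were counted at 5844 and 3014 over all libraries. Levels of mt-Co1 and mt-Nd4 per length are therefore uncertain, and no level was read from the members at 0. How the authors' counting treated reads that fit several places is not given in the sources used here, and the part of the copies in the gap was not tested.

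**Figure D1:**
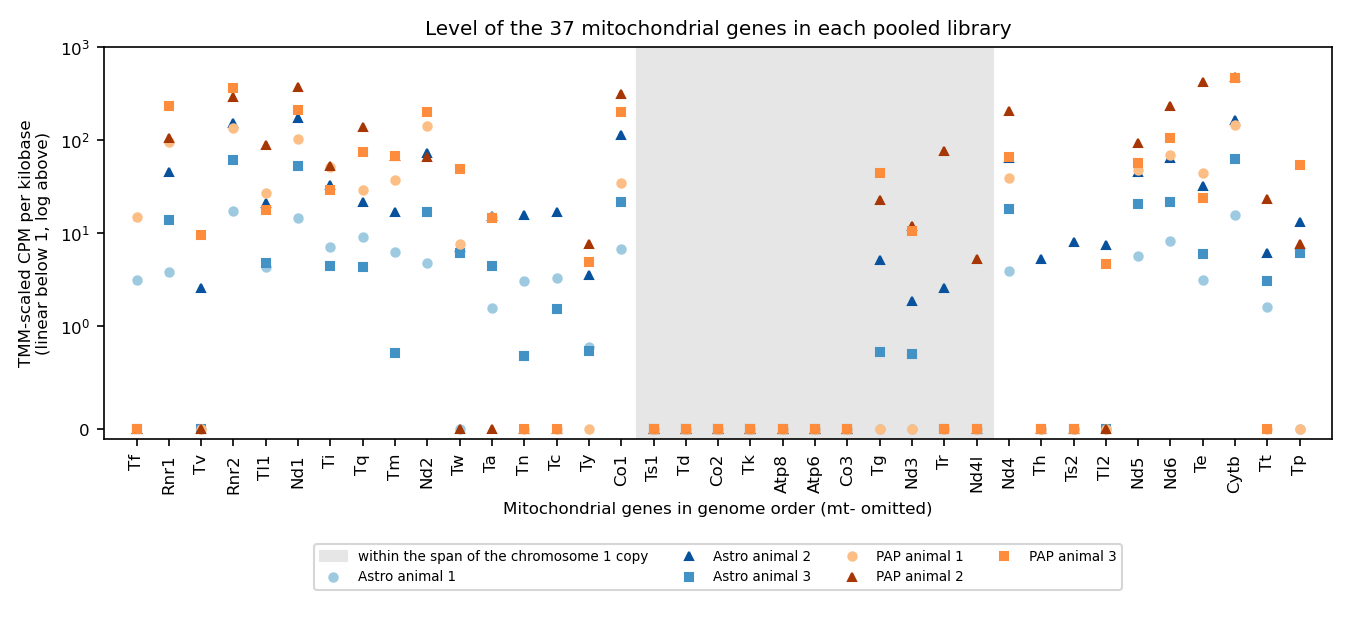
Level of each of the 37 mitochondrial genes (TMM-scaled CPM per kilobase of gene, linear below 1 and logarithmic above) in the 6 pooled libraries, in the order of the genome. The shaded genes lie within the span of the chromosome 1 copy, where 7 of 11 were at 0 in every library.

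Mitochondrial transcripts took a small share of the counts in each library, and a larger one in PAP than in Astro of the same animal. Members wholly inside the span of the chromosome 1 copy added at most 11 counts each to a library. The shares therefore leave out any RNA of these members that was not counted. In Astro, the 37 members held 0.00926% of the library in animal 1, 0.101% in animal 2 and 0.0363% in animal 3. In PAP they held 0.103% in animal 1, 0.281% in animal 2 and 0.237% in animal 3. The PAP share was 11.1, 2.78 and 6.53 times the Astro share in animals 1 to 3. The lowest PAP library, animal 1, stood only 1.02 times above the highest Astro library, animal 2, and their 95% Wilson intervals, which cover counting error alone, overlapped (0.0984% to 0.108% against 0.0997% to 0.103%). The groups thus stood apart by less than the counting error, while within each animal PAP was well above Astro.

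By class, the mRNA share was 0.0349% ± 0.0350 over the Astro animals and 0.145% ± 0.0733 over the PAP animals (SD, n = 3). It held next to nothing of mt-Co2, mt-Atp8, mt-Atp6, mt-Co3, mt-Nd3 and mt-Nd4l, whose levels could not be read. The mRNA share overlapped between groups, with 0.0739% in Astro animal 2 against 0.0685% in PAP animal 1. The rRNAs, structural parts of the mitochondrial ribosome, made up 0.0133% ± 0.0116 of Astro libraries and 0.0581% ± 0.0245 of PAP libraries (SD, n = 3). The tRNAs made up 0.000683% ± 0.000682 and 0.00370% ± 0.00261 (SD, n = 3), from 56, 275 and 59 counts in Astro and from 31, 122 and 82 in PAP, by animal. The difference in tRNA share was 0.00302 percentage points, and 0.00154 without PAP animal 2. The rRNA shares did not overlap between groups. The tRNA shares did not either, but by less than counting error: PAP animal 1 was at 0.00169% (95% Wilson interval 0.00119% to 0.00240%) and Astro animal 2 at 0.00147% (0.00131% to 0.00165%). No test was made on the sum of a class, since its members were chosen as a list. Technical replicates 1 to 4 and 5 to 8 gave like shares of all 37 members, such as 0.0957% and 0.107% in Astro animal 2 and 0.269% and 0.295% in PAP animal 2.

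In Astro, but not in PAP, the animals differed more in the well-counted members than in nearly all other genes. In Astro, the highest animal stood 10.9 times above the lowest for the 37 members together, and the order was animal 2, then 3, then 1. Of 4835 genes with a mean of at least 10 CPM in each group and more than 3 counts in every library, the median gene differed 1.33-fold between the highest and the lowest Astro animal. The 9 members among them differed from 7.78-fold (mt-Nd6) to 17.2-fold (mt-Co1), and only 13 genes (0.269%) differed by as much as the lowest member, 9 of them mitochondrial. The other 4, named after their values were seen, were F5, Spint2, Ttr and Mttp. In PAP the 9 members differed 1.94-fold to 9.09-fold between animals, against a median of 3.26 for the same 4835 genes, of which 75.4% reached the lowest member's ratio.

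Ttr encodes transthyretin, the main secreted protein of the choroid plexus, the epithelium that makes cerebrospinal fluid and lies next to the hippocampus. Its level was 2356, 19237 and 4304 CPM in Astro animals 1 to 3, and 637, 6062 and 6581 CPM in PAP. A list of 14 choroid plexus genes, written after these values were seen, summed to 3400, 24940 and 5651 CPM in Astro and to 767, 8146 and 7769 CPM in PAP. All 14 were present in each Astro library. In PAP animals 1 to 3, 9, 3 and 5 of the 14 were at 0, and Aqp1 and Otx2 were at 0 in all PAP libraries. Within Astro the libraries stood in the same order for this sum as for the mitochondrial share, with animal 2 highest and animal 1 lowest. Of the 4835 genes described above, 12.1% had this order. Ttr, whose values prompted the list, held 19237 of the 24940 CPM in Astro animal 2. In PAP the sum also had the order of the mitochondrial share, highest in animal 2 and lowest in animal 1. The order of animals 2 and 3 differed between the genes of the list. Enpp2 (1455 and 809 CPM in animals 2 and 3), Kl, Folr1, Clic6, Kcnj13, Cldn2 and Calml4 were highest in animal 2. Ttr, Kcne2, Sostdc1, Slc4a5 and Prlr were highest in animal 3. Between the groups the order was not shared, as PAP animal 1 had the lowest choroid plexus sum of all libraries and Astro animal 2 the highest, while their mitochondrial shares were 0.103% and 0.101%. The part of choroid plexus RNA in the mitochondrial counts was not tested.

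**Figure D2:**
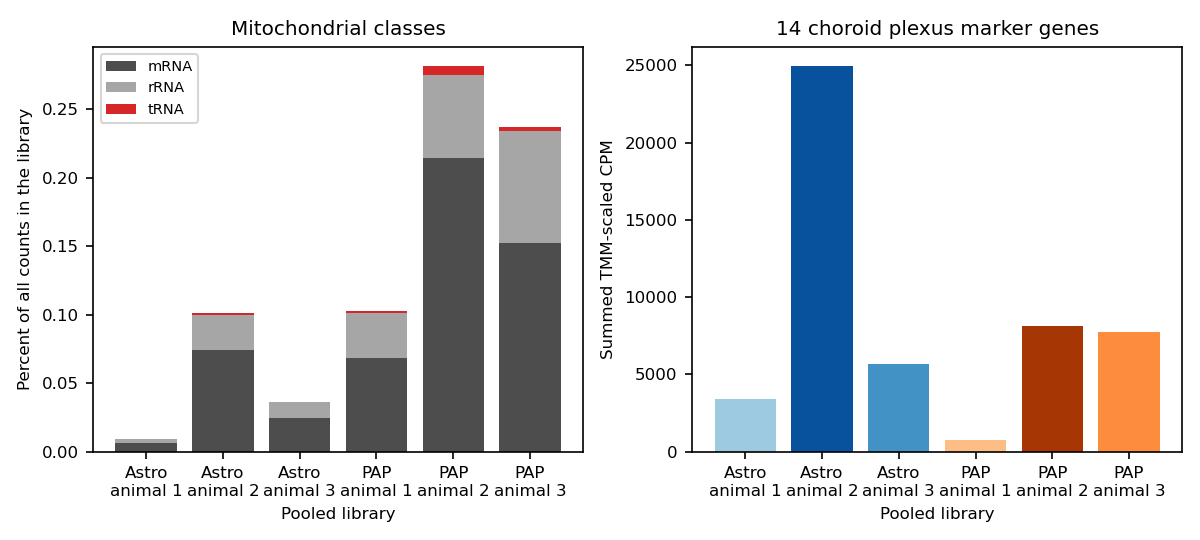
Left, percent of all counts in mitochondrial mRNAs, rRNAs and tRNAs (stacked bars) in each pooled library. Right, summed TMM-scaled CPM of the 14 choroid plexus genes in the same libraries. Astro animal 2 stands above the other Astro libraries in both, and PAP animal 1 is the lowest library on the right and not on the left.

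No mitochondrial gene passed the test between compartments. The edgeR quasi-likelihood test was fitted on all 14618 genes that passed a filter on low counts, with p-values adjusted over all of them. Of the 37 members, 15 passed the filter, 7 mRNAs, 2 rRNAs and 6 tRNAs. The filter asked for 0.922 CPM, before TMM scaling, in at least 3 libraries. The 7 mRNAs and 2 rRNAs reached it in all 6 libraries, while 5 tRNAs reached it in the 3 PAP libraries and in only 1 Astro library, so that the choice of these 5 favoured genes higher in PAP, and mt-Ta reached it in 2 PAP libraries and 1 Astro library. All 15 had positive log2 fold changes of PAP against Astro, from 0.51 for mt-Ta to 3.54 for mt-Te, with a median of 2.12, beside -0.53 over all tested genes. The 9 members that reached the filter in every library had a median of 1.93, beside 0.06 for the 5902 genes that did so. None of the 15 had an adjusted p under 0.05 (0.087 to 0.829), where 21.3% of all tested genes did, 5.92% higher and 15.4% lower in PAP. At an unadjusted edgeR p under 0.05, 3 of the 15 were higher in PAP, mt-Rnr1, mt-Tq and mt-Tm, where 9.39% of all genes were higher and 30.9% passed in either direction. In the DESeq2 Wald test, 7 of the 15 had an adjusted p under 0.05, all higher in PAP: mt-Rnr1, mt-Rnr2, mt-Cytb, mt-Nd6, mt-Tq, mt-Tm and mt-Te, where 11.8% of the genes with a value were called higher. Since mt-Tq, mt-Tm and mt-Te passed the filter through PAP, these counts over the 15 are not support for a direction. Of the 9 members at the filter level in every library, edgeR called 0, where it called 10.2% of such genes higher, and 1, mt-Rnr1, had an unadjusted p under 0.05, where 17.3% were higher. DESeq2 called 4 of the 9 higher, where it called 21.7% of such genes. With the animal as a block the edgeR adjusted p ran from 0.163 to 0.760 and again none was called, where 0.91% of genes were, 0.876% higher and 0.0342% lower. The PAP level was above the Astro level in all 3 animals for 8 of these 9, where 24.9% of such genes had this (12.6% of all tested genes). Groups did not overlap, with PAP higher, for 3 of the 9, mt-Rnr1, mt-Nd5 and mt-Nd6, where 21.3% of such genes had this (10.9% of all tested genes). All 9 had the same order of animals in Astro, so these counts are not of independent genes. Single libraries moved the log2 fold changes of the 9: without Astro animal 2 they ran from 2.36 (mt-Nd5) to 4.05 (mt-Rnr1), and without PAP animal 2 from 0.82 (mt-Nd4) to 2.91 (mt-Rnr1). None of the 9 was called without any 1 of the 6 libraries.

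**Figure D3:**
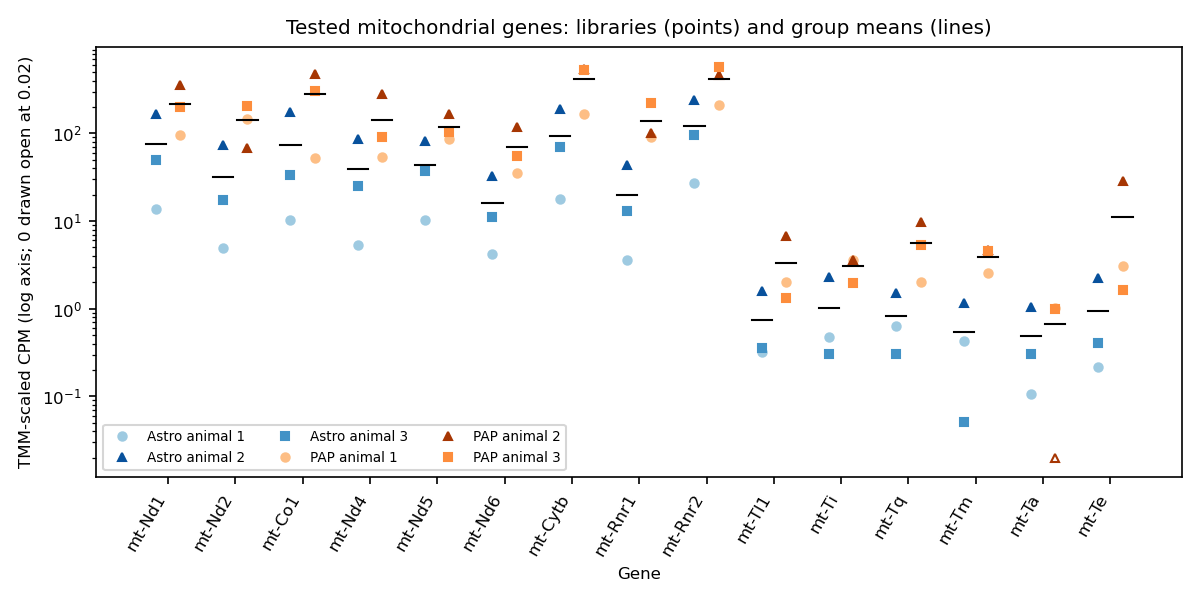
TMM-scaled CPM (log axis) of the 15 tested mitochondrial genes in each pooled library (points) with group means (lines). Astro animal 2 is the highest Astro library for each gene, and the groups overlap for 10 of the 15.

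Outside the span of the chromosome 1 copy, mt-Cytb (ENSMUSG00000064370, chrM:14145-15288) encodes cytochrome b, the mitochondrial subunit of complex III. This mRNA stood at 17.7, 189 and 70.7 CPM in Astro animals 1 to 3 and at 167, 544 and 528 CPM in PAP, where only the lowest PAP library reached into the Astro range. The log2 fold change of mt-Cytb was 2.16 ± 0.90 (SE; edgeR adjusted p 0.163, with or without the block). For mt-Co1 (ENSMUSG00000064351, chrM:5328-6872), the catalytic subunit of complex IV, the levels were 10.3, 176 and 33.3 CPM in Astro and 52.8, 480 and 306 CPM in PAP. PAP animal 1 lay below Astro animal 2, and the log2 fold change was 1.93 ± 1.19 (SE; edgeR adjusted p 0.359), or 3.70 without Astro animal 2 and 1.23 without PAP animal 2.

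The measured complex I subunits, parts of the membrane arm that pumps protons, were mt-Nd1, mt-Nd2, mt-Nd4, mt-Nd5 and mt-Nd6. mt-Nd1 (ENSMUSG00000064341, chrM:2751-3707) stood at 13.8, 164 and 50.0 CPM in Astro and at 97.0, 354 and 201 CPM in PAP, overlapping between groups (log2 fold change 1.51 ± 0.94, SE; edgeR adjusted p 0.360). mt-Nd2 (ENSMUSG00000064345, chrM:3914-4951) stood at 4.92, 74.2 and 17.4 CPM in Astro and at 145, 68.2 and 208 CPM in PAP. It was the only tested mRNA that was not higher in PAP in all 3 animals, with a ratio of 0.919 in animal 2 against 29.5 and 12 in animals 1 and 3 (edgeR adjusted p 0.233). mt-Nd4 (ENSMUSG00000064363, chrM:10167-11544) stood at 5.35, 87.4 and 24.9 CPM in Astro and at 53.3, 279 and 90.4 CPM in PAP (edgeR adjusted p 0.346), with PAP animal 1 inside the Astro range. mt-Nd5 (ENSMUSG00000064367, chrM:11742-13565) stood at 10.2, 82.0 and 37 CPM in Astro and at 86.3, 168 and 104 CPM in PAP. Its groups did not overlap, by a margin of a few CPM, and its log2 fold change of 1.47 ± 0.80 (SE) had an edgeR adjusted p of 0.291.

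mt-Nd6 (ENSMUSG00000064368, chrM:13552-14070) is the only mRNA gene on the minus strand, overlaps the end of mt-Nd5 and is known to lack a poly(A) tail. It stood at 4.22, 32.9 and 11.2 CPM in Astro and at 35.5, 120 and 54.6 CPM in PAP (log2 fold change 2.12 ± 0.98, SE, with an edgeR adjusted p of 0.207). Its groups did not overlap, by a margin of a few CPM, with 70 counts in PAP animal 1. The strand setting of the counting is not given in the sources used here, so reads from mt-Nd6 and from the opposite strand cannot be told apart. The remaining mRNAs inside the span of the chromosome 1 copy gave little: mt-Nd3 had 0, 11 and 5 counts in Astro and 0, 8 and 11 in PAP, and mt-Nd4l 3 counts, all in PAP animal 2.

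Both rRNAs were well counted. mt-Rnr1 (ENSMUSG00000064337, chrM:70-1024), the rRNA of the small mitochondrial subunit, stood at 3.64, 43.3 and 13.2 CPM in Astro and at 91.4, 100 and 221 CPM in PAP. Its groups did not overlap, and its log2 fold change of 2.78 ± 0.99 (SE) had an edgeR adjusted p of 0.105, 0.206 with the block. mt-Rnr2 (ENSMUSG00000064339, chrM:1094-2675), the rRNA of the large subunit, stood at 27.3, 238 and 96.6 CPM in Astro and at 213, 464 and 579 CPM in PAP. PAP animal 1 lay below Astro animal 2, and its log2 fold change was 1.79 ± 0.80 (SE; edgeR adjusted p 0.194).

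The balance of the 2 rRNAs differed between the compartments. By animal, the count of mt-Rnr2 was 7.51, 5.50 and 7.33 times that of mt-Rnr1 in Astro and 2.33, 4.64 and 2.62 times in PAP. Per length, the ratio was 4.54, 3.32 and 4.42 in Astro and 1.41, 2.80 and 1.58 in PAP, so that in each animal the PAP ratio was lower. The groups did not overlap in this ratio, which was chosen after its values were seen and so has no test.

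Most tRNAs, the adaptors that carry amino acids to the ribosome, were near the floor. mt-Tq (glutamine) had 12, 26 and 6 counts in Astro and 4, 19 and 16 in PAP, which at the lower depth of PAP is 0.641, 1.52 and 0.303 against 2.03, 9.75 and 5.26 CPM (log2 fold change 2.77 ± 0.92, SE; edgeR adjusted p 0.087, 0.337 with the block). mt-Tm (methionine) had 8, 20 and 1 counts in Astro and 5, 9 and 14 in PAP (log2 fold change 2.82 ± 1.02, SE; edgeR adjusted p 0.111). mt-Te (glutamate), which lies between mt-Nd6 and mt-Cytb, had 4, 38 and 8 counts in Astro and 6, 56 and 5 in PAP, so that PAP animal 2 alone held most of its PAP counts. Without that library its log2 fold change went from 3.54 to 1.23. The tested mt-Tl1, mt-Ti and mt-Ta had log2 fold changes of 2.12, 1.56 and 0.51, with edgeR adjusted p of 0.197, 0.309 and 0.829. Single libraries moved the values of these few counts: mt-Tl1 was at 1.08 without PAP animal 2, mt-Ti at 2.94 without Astro animal 2 and mt-Ta at 0.01 without PAP animal 3. Without Astro animal 2, mt-Tq was at 3.58 and mt-Tm at 4.01.

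Of the tRNAs that were not tested, mt-Tn and mt-Tc (asparagine and cysteine) had 0 counts in all 3 PAP libraries, and 4, 19 and 1 and 4, 19 and 2 counts in Astro. Their highest Astro level, 1.11 CPM in animal 2, lay under the floor of PAP animal 2 and just above the lowest PAP floor of 0.987 CPM, and the levels in Astro animals 1 and 3 lay under all of these floors. A fall in PAP was therefore not detectable for them at this depth. mt-Tw had 0, 8 and 8 counts in Astro and 1, 0 and 10 in PAP, mt-Tp had 0, 15 and 8 and 0, 1 and 11, and mt-Tr had 0, 3 and 0 and 0, 10 and 0. The remaining untested tRNAs had at most 9 counts in any library. Together, the 8 tRNAs with genes on the minus strand had 27, 139 and 32 counts in Astro and the 14 on the plus strand 29, 136 and 27. In PAP these were 12, 77 and 36 against 19, 45 and 46 on the plus strand, and 56 of the 77 minus-strand counts of PAP animal 2 were of mt-Te. As for mt-Nd6, reads of the opposite strand cannot be told apart in these sums, nor in mt-Tq, mt-Ta and mt-Te.

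In Astro, the make-up of the mitochondrial counts varied less between animals than their amount. Of all member counts in a library, mRNAs made up 66.2%, 73.1% and 68.5% in the Astro libraries of animals 1 to 3 and 66.6%, 76.3% and 64.4% in PAP. The make-up is that of the counted members, and the mRNAs wholly inside the span of the chromosome 1 copy added next to nothing to it. mt-Cytb made up 18.2% ± 1.42 in Astro and 20.2% ± 2.68 in PAP, and mt-Rnr2 25.3% ± 3.20 and 21.6% ± 3.75 (SD, n = 3). mt-Nd1 made up 13.8%, 14.9% and 14% in Astro and 10.1%, 13.4% and 8.64% in PAP, so its share was lower in every PAP library. The gap was narrow, between 259 counts in Astro animal 1 and 690 in PAP animal 2. No other mRNA or rRNA had a share that stood apart between the groups. mt-Nd2 made up 4.90%, 6.72% and 4.86% in Astro and spread from 2.58% to 15.2% in PAP, from the lowest in animal 2 to the highest in animal 1. Astro animals thus differed by 10.9-fold in total and far less in composition, while PAP libraries differed in both. By level per kilobase, mt-Cytb ranked first in all 3 PAP libraries and first or second in each Astro library among the members whose level could be read, those outside the span of the chromosome 1 copy.

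Most nuclear genes for subunits of the same complexes did not pass the test. Of 71 nuclear genes for subunits of complexes I, III, IV and V, all were tested, 1 was higher and 7 were lower in PAP (edgeR adjusted p under 0.05), with a median log2 fold change of -0.74, where 5.92% of all genes were called higher and 15.4% lower around a median of -0.53. The median over the 5902 genes past the filter level in every library was 0.06. With the animal as a block, or without any 1 of the Astro libraries, 0 of the 71 were called; without an Astro library only 0.889% to 1.09% of all genes were. Without PAP animal 1, 14 of the 71 were called, where 25.4% of all genes were, and without PAP animal 3, 19 were, where 27.8% of all genes were. Complex I had 5 of 36 lower and a median of -0.85, and its log2 fold changes ran from -1.92 to 0.12, all under the 1.47 to 2.13 of the 5 measured mitochondrial subunits. Ndufb10 and Ndufb2, accessory subunits, fell from 521 ± 26.0 to 183 ± 55.6 CPM and from 335 ± 34.4 to 127 ± 25.8 CPM (SD, n = 3; edgeR adjusted p 0.0208 and 0.0219, both 0.206 with the block). Complex III had 0 of 9 called by edgeR, with 2 at an unadjusted p under 0.05, where 30.9% of all genes were, and a median of -0.34. Its smallest edgeR adjusted p were 0.0595 for Uqcrb and 0.103 for Cyc1, with log2 fold changes of -1.51 and -0.78. Complex IV had 1 of 11 lower, Cox5a, at 639 ± 50.1 CPM in Astro and 330 ± 59.2 in PAP (SD, n = 3; edgeR adjusted p 0.0395, 0.206 with the block), while Cox7a2 was at -0.68 (0.0990). In ATP synthase, Atp5a1, the alpha subunit, rose from 791 ± 116 to 2078 ± 320 CPM and Atp5f1, of the peripheral stalk, fell from 711 ± 70.6 to 407 ± 13.7 CPM (SD, n = 3; edgeR adjusted p 0.0208 and 0.0419, 0.166 and 0.228 with the block). No test of the difference between mitochondrial and nuclear subunits was made.

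**Figure D4:**
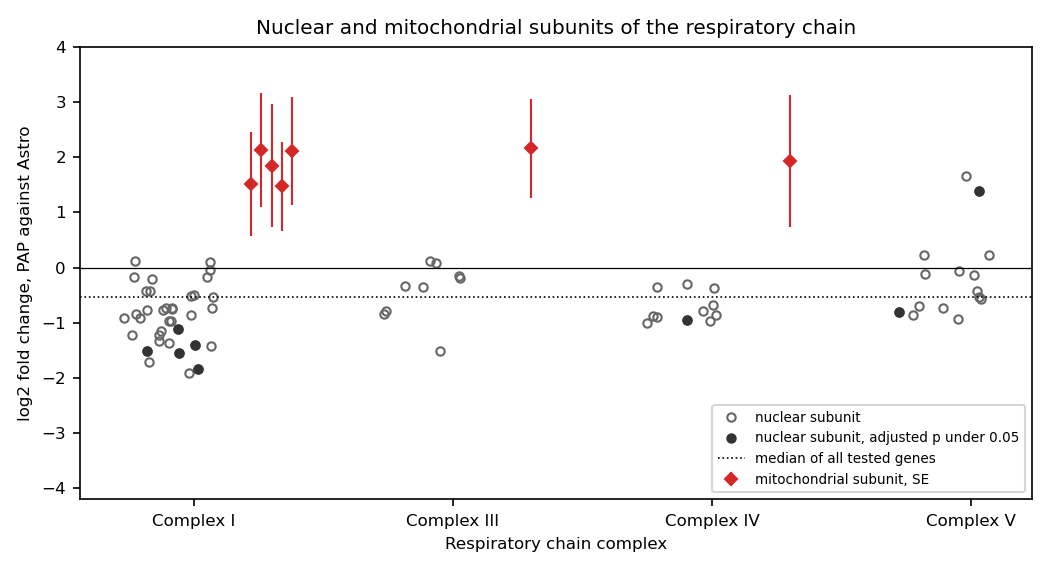
Log2 fold change of PAP against Astro for nuclear subunits (circles, filled where the edgeR adjusted p is under 0.05) and measured mitochondrial subunits (diamonds, with SE) of respiratory complexes I, III, IV and V. The mitochondrial subunits lie from 1.47 to 2.16, none past the threshold, and the dotted line is the median of all tested genes, -0.53.

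Nuclear genes that act on mitochondrial DNA and RNA were given by a list of 53, of which 52 were tested. Of these, 1 was higher and 5 lower in PAP, with a median log2 fold change of -0.16, beside 5.92% and 15.4% of all genes, and with the animal as a block, or without any 1 of the Astro libraries, 0 were called. Without PAP animal 1 the calls numbered 12 of 52 and without PAP animal 3 they numbered 11, where 25.4% and 27.8% of all genes were called. Among 13 genes of RNA processing, Tbrg4, of the FASTK family of mitochondrial RNA-binding proteins, rose from 4.48 ± 0.366 to 44.9 ± 9.41 CPM (SD, n = 3; edgeR adjusted p 0.0243, 0.225 with the block). Fastkd1 and Fastkd5 of the same family fell, Fastkd1 from 13.9 ± 2.52 CPM (SD, n = 3) to 1 count in all of PAP (edgeR adjusted p 0.0242) and Fastkd5 from 8.22 ± 3.42 CPM to 0 counts in PAP, at least 5.34-fold lower against a floor of 3 counts per library (edgeR adjusted p 0.0213, with both at 0.206 with the block). The bound for Fastkd5 covers counting error alone. Of the 14618 tested genes, 1406 were at 0 in all PAP libraries.

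Of 7 genes of RNA stability and decay, 2 fell, where 15.4% of all genes did. Mtpap, the mitochondrial poly(A) polymerase, stood at 51.7, 50.7 and 50.5 CPM in Astro and at 0 counts in all 3 PAP libraries, at least 33.1-fold lower (edgeR adjusted p 0.0208, 0.206 with the block). The bound for Mtpap covers counting error alone too, and 1406 of the 14618 tested genes were at 0 throughout PAP. Pnpt1, a subunit of the mitochondrial RNA degradosome, stood at 26.8, 23.5 and 13.0 CPM in Astro and had 0, 1 and 3 counts in PAP (edgeR adjusted p 0.0326, 0.217 with the block). Lrpprc and Slirp, which form a complex that stabilises mitochondrial mRNAs, were not called: Lrpprc stood at 8.71, 12.8 and 30.2 CPM in Astro and 4.06, 0 and 139 in PAP, and Slirp at 187 ± 24.4 and 90.9 ± 20.7 CPM (SD, n = 3; edgeR adjusted p 0.702 and 0.0918).

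Of 17 genes of translation and membrane insertion, Gfm1, a mitochondrial elongation factor, fell from 171 ± 19.0 to 47.7 ± 2.60 CPM (SD, n = 3; edgeR adjusted p 0.0208, 0.206 with the block). Tufm, the mitochondrial elongation factor Tu, stood at 26.9 ± 1.51 CPM in Astro and at 74.6, 18 and 63.1 CPM in PAP (edgeR adjusted p 0.475). None of 7 genes of replication and the nucleoid and none of the 8 tested of 9 transcription genes was called by edgeR, with 1 and 1 at an unadjusted p under 0.05, where 30.9% of all genes were. Tfam, which packages mitochondrial DNA, had 220, 3 and 2 counts in PAP animals 1 to 3, and Polrmt, the mitochondrial RNA polymerase, had 0, 0 and 82, so that each was counted almost only in 1 PAP library.

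**Figure D5:**
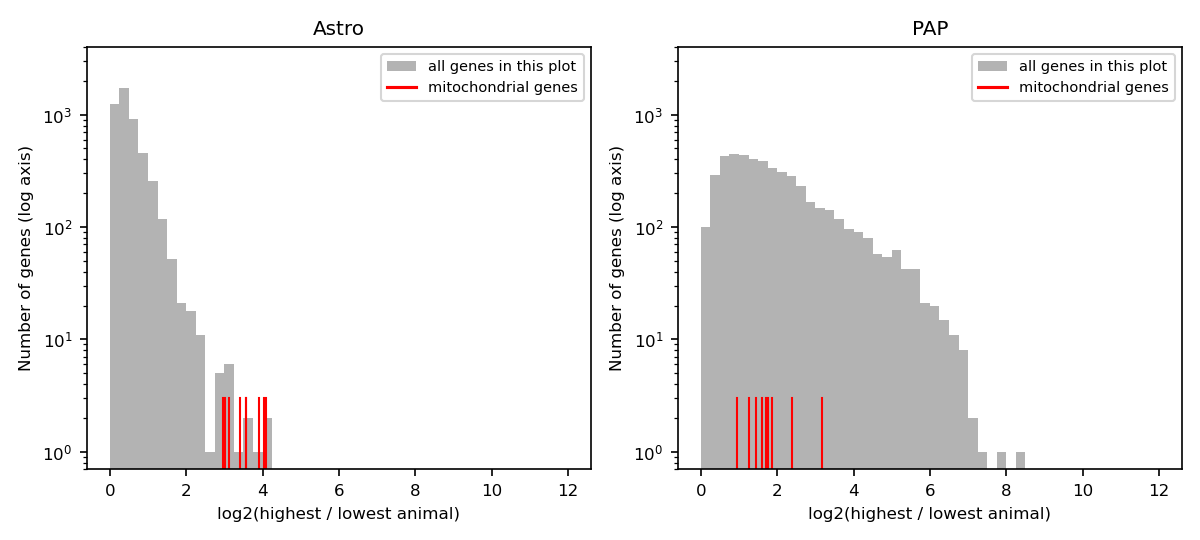
Histogram of the log2 ratio of the highest to the lowest animal for the 4835 genes described above, in Astro (left) and PAP (right), with a log axis for the number of genes. Red lines mark the 9 mitochondrial genes, which lie at the far end in Astro, from 7.78-fold to 17.2-fold, and within the bulk in PAP.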

How the data were processed

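Per the file headers, each file lists an Ensembl gene and its count. The authors deposited unscaled counts: the values are whole and library totals vary. Per the submitters' processing notes, bcl2fastq 2.18.0.12, Trim Galore 0.4.1, STAR 2.5.2b, SAMtools and HTSeq 0.5.3 were used, with the build mm10; their settings and the annotation are not given in the sources used here. Per the labels' protocols, RNA was amplified with the SMART-Seq v4 kit and libraries were made with Nextera XT. No molecular identifiers are mentioned, so intervals and floors cover counting error only.

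Of the 47643 identifiers, 47224, with 99.9% of counts, had a symbol, position and length in GENCODE M21 (GRCm38). The 8 technical replicates per animal and compartment were summed. edgeR 4.0.16 in R 4.3.3 (filterByExpr with a minimum count of 10, TMM factors, quasi-likelihood test, group alone) compared PAP with Astro over all genes, at a Benjamini-Hochberg adjusted p of 0.05. CPM are scaled by TMM factors, and shares are percentages of the library total with 95% Wilson intervals. DESeq2 1.42.0 was an alternative. Copies were sought with BLAST 2.17.0. The test was also run on simulated counts, and no result here rests on that run.

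The labels name the animal of each library, which is where the pairing comes from. Deviations of same-animal libraries from their group means correlated at 0.033, 0.018 and -0.027 for animals 1 to 3, against a mean of -0.004 for libraries of different animals.

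The members and lists were chosen with earlier results of these data known. Named are members with at least 10 counts in a library, list genes that were called, 6 list genes named in any case, and per complex the 2 nuclear subunits with the smallest adjusted p. The choroid plexus list was chosen once the levels of Ttr were known.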

Additional observations from a re-analysis of the deposited data

How the results depend on the processing

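The 9 mitochondrial genes at the filter level in every library had positive log2 fold changes in all 14 alternatives (126 values, from 0.82 to 4.05), of which 4, all in DESeq2, passed the threshold. These 126 values are not independent, since the alternatives reuse the same libraries and the 9 genes moved together between the Astro animals. Of all 15 tested, the number called, 0 with edgeR, was 7 in the DESeq2 Wald test and 1 of 12 (mt-Tq, which passed the filter through PAP) in technical replicates 5 to 8, where 20.4% of all genes were called, and 0 in the fits that each left out a library. With the replicate block (animal), the 6 called genes of mitochondrial gene expression and the 8 called nuclear subunits became 0 and 0, and no mitochondrial gene was called. Called genes of mitochondrial gene expression numbered 13 of 52 in DESeq2, where 36% of all genes were called, and 0 to 12 when libraries were left out one by one, 0 without each Astro library. Called nuclear subunits numbered 32 of 71 in DESeq2, 5 with library size alone, 4 at equal depth and 0 to 19 when libraries were left out in turn, again 0 without each Astro library. The share of all genes called was 21.3%, and it was 0.91% with the block, 21.1% with library size alone, 15.1% at equal depth, 0.889% to 1.09% without an Astro library and 24.6% to 27.8% without a PAP library. The cause was not tested. Differences in the class shares moved by less than the spread between PAP animals in all alternatives: with each library left out they ran from 0.0756 to 0.149 percentage points for mRNAs, 0.0331 to 0.0575 for rRNAs and 0.00154 to 0.00402 for tRNAs. Scaling by library size alone moved the all-gene median from -0.53 to -0.38 (log2) and that of the 15 members from 2.12 to 2.28. Depth limited the tRNAs: at equal depth only 9 of the 37 members could be tested.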
